A study of Arabidopsis thaliana with 4 samples.

Results

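The genes described here are 10 genes of brassinosteroid synthesis and signalling in Arabidopsis thaliana, chosen by their locus codes among the 32627 genes with a value on the arrays. They are the synthesis enzymes DWF4 (AT3G50660), CPD (AT5G05690), ROT3 (AT4G36380), BR6OX1 (AT5G38970) and BR6OX2 (AT3G30180), the inactivating enzyme BAS1 (AT2G26710), the receptor BRI1 (AT4G39400), the kinase BIN2 (AT4G18710), and the transcription factors BZR1 (AT1G75080) and BES1 (AT1G19350). All 10 had a value, on 15 of the 37118 transcript models. RNA came from Col-0 seedlings 13 days after germination, grown on soil at 22 °C in 16 hours of light and 8 hours of dark. The wild type, with normal flowering, was compared with a late-flowering line that carries 35S::JMJ30-HA, a transgene that expresses JMJ30, a histone demethylase gene, with an HA tag from the 35S promoter, which is active in most tissues. Each genotype had 2 arrays, from plants described as biological replicates. The labels give neither the number of transgenic lines or plants in a sample nor the hour of harvest. The design text speaks of independent sets that hold both genotypes, so arrays with the same replicate number are called set 1 and set 2 here.

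Brassinosteroids are plant steroid hormones that promote cell elongation, vascular development and responses to light. The hormone is made from sterols by a series of cytochrome P450 enzymes and is bound at the cell surface by BRI1. Signalling from BRI1 switches off BIN2, a kinase that otherwise phosphorylates and inactivates BZR1 and BES1. Active BZR1 and BES1 repress genes of hormone synthesis and activate growth genes, a feedback loop that holds the hormone level in bounds.

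Values are normalized intensities on a linear scale, and each gene is described by the transcript model with the highest mean. Intensities of different genes come from different probes and are not set against each other. The mean log2 intensities of all genes fell into a dim and a bright mode with a valley at an intensity of 12.0, and a gene with a mean under it is called near background, which is no detection call. Of the 10 brassinosteroid genes 9 lay above the valley and BR6OX1 lay near background. Median intensity per array was 25.6 to 26.6. JMJ30 itself read 705 and 567 in wild-type seedlings against 1054 and 721 in transgenic ones, a difference that did not pass the test described below (adjusted p = 1.0). All 4 green shoot markers (RBCS1A, RCA, CAB3, LHCA1) read 1201 or more on every array. CAB3 read 1804 and 1808 on wild-type arrays of sets 1 and 2 against 1476 and 1618 on transgenic ones. LHCA1 likewise read 1626 and 1783 against 1201 and 1467. RBCS1A differed less, at 1597 and 1601 against 1562 and 1585, and RCA overlapped, at 1450 and 1292 against 1336 and 1388. The part of these differences in the results was not tested. Markers of root (PRP3, EXPA7), flower (AP3, PI) and seed (CRA1, OLEO4, SESA3) were near background, so these root markers were at the dim mode in samples labelled as seedlings. In such samples fewer cells of a type and less RNA per cell cannot be told apart.

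No synthesis enzyme passed the test between genotypes. DWF4, the P450 of an early step that limits flux into the pathway, read 87.8 and 95.9 in wild-type seedlings against 91.2 and 91.4 in transgenic ones, where the value of set 1 comes first here and below. The transgenic arrays lay between the wild-type arrays. Its log2 difference, transgenic line minus wild type, was -0.0068 ± 0.18 (SE), with a 95% interval from -0.47 to 0.46. CPD, a P450 that acts on the steroid ring and whose loss gives dwarf plants, read 866 and 750 in wild-type seedlings against 746 and 765 in transgenic ones. The genotypes overlapped, with the wild-type array of set 1 apart from the other 3. The log2 difference of CPD was -0.094 ± 0.19 (SE).

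ROT3, a P450 of the side chain that is known for its role in leaf length, read 75.2 and 79.8 in wild-type seedlings against 62.2 and 92.5 in transgenic ones. The transgenic arrays lay outside the wild-type arrays on either side, so the genotype means of 77.5 ± 3.25 (SD, n = 2) and 77.3 ± 21.4 (SD, n = 2) differed far less than the spread. BR6OX1, an oxidase of a late step, read 10.5 and 9.14 in wild-type seedlings against 6.91 and 9.55 in transgenic ones. All its arrays were below the valley, and its log2 difference was -0.27 ± 0.24 (SE), or -0.092 with log2(value + 16).

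BR6OX2, a relative of BR6OX1 that also makes brassinolide, the most active brassinosteroid of this species, split the arrays by set. It read 92.4 and 50.6 in wild-type seedlings against 93.0 and 45.8 in transgenic ones. Both arrays of set 1 were high and both of set 2 low, in either genotype. The genotype means were 71.5 ± 29.6 (SD, n = 2) and 69.4 ± 33.4 (SD, n = 2), a log2 difference of -0.067 ± 0.46 (SE). The 95% interval ran from -1.23 to 1.10, the widest of the 10 genes, and from -0.51 to 0.37 with the replicate number as a block.

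BAS1, a P450 that inactivates brassinosteroids and whose transcript is known to rise with the hormone, read 83.0 and 48.6 in wild-type seedlings against 60.5 and 53.3 in transgenic ones. The wild-type arrays lay on either side of the transgenic ones. The genotype means were 65.8 ± 24.3 (SD, n = 2) and 56.9 ± 5.04 (SD, n = 2), a log2 difference of -0.16 ± 0.31 (SE).

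**Figure D1:**
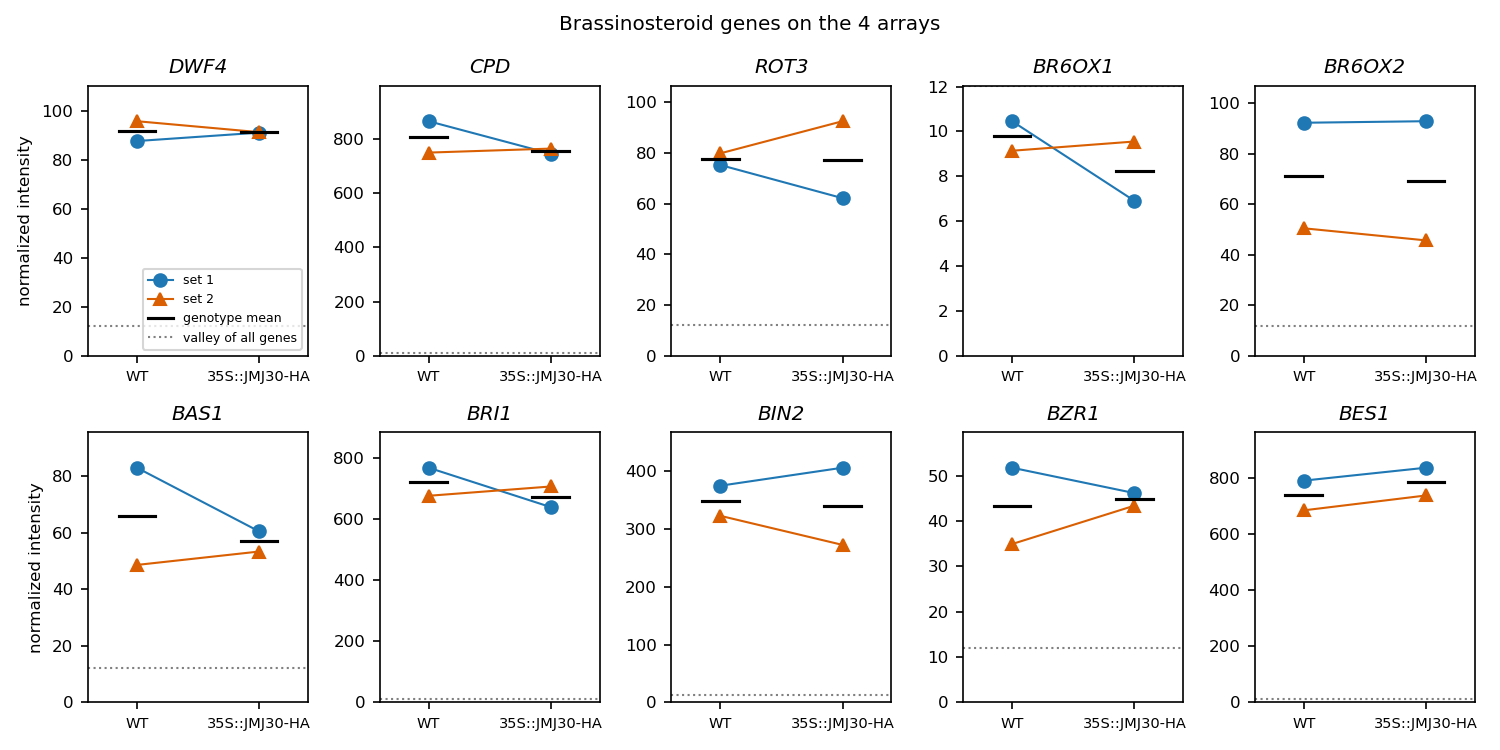
Normalized intensity (y axis, linear, from 0) of the 10 brassinosteroid genes in the wild type (WT) and the 35S::JMJ30-HA line, 1 panel per gene; circles are set 1, triangles set 2, lines join arrays of a set, black bars are genotype means (n = 2) and the dotted line is the valley at 12.0. BR6OX2 separates by set, at 92.4 and 93.0 against 50.6 and 45.8, and the genotypes overlap in every panel.

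The receptor and the kinase likewise overlapped between genotypes. BRI1, the receptor kinase at the cell surface, read 767 and 675 in wild-type seedlings against 638 and 705 in transgenic ones. These values interleave, and the log2 difference was -0.10 ± 0.19 (SE). BIN2, the shaggy-like kinase that inhibits the response, read 375 and 323 in wild-type seedlings against 406 and 273 in transgenic ones. Both arrays of set 1 exceeded both of set 2, and the log2 difference between genotypes was -0.065 ± 0.26 (SE).

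BZR1 and BES1 are close relatives that bind DNA and carry the signal to genes, and they were the members with a positive estimate. BZR1 read 51.8 and 35.0 in wild-type seedlings against 46.2 and 43.4 in transgenic ones, with the transgenic arrays between the wild-type ones. Its log2 difference was 0.074 ± 0.25 (SE). BES1 read 792 and 686 in wild-type seedlings against 838 and 739 in transgenic ones. The genotypes overlapped, since the higher wild-type array exceeded the lower transgenic one. By the transcript models with the highest mean, BES1 was the only member whose estimate had the same sign in both sets. The estimate was 0.082 in set 1 and 0.11 in set 2. Its log2 difference was 0.095 ± 0.20 (SE). Models 1 and 3 of BES1 had opposite signs in the sets. Probe sequences were not used here, so cross-hybridization between such relatives could not be checked.

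In the comparison of genotypes no brassinosteroid gene passed the test. The limma test called 0 of the 10 at an adjusted p below 0.05 and 0 at an unadjusted p below 0.05 (adjusted p = 1.0 for each). Over all 32627 genes the share called was 0%, and 2.99% had an unadjusted p below 0.05. With the replicate block 0 of the 10 passed either threshold, against 0% and 6.01% of all genes. By the transcript models with the highest mean, the genotypes overlapped at all 10. Both transgenic arrays lay above or both below the wild-type arrays at 26% of all genes. By estimate 2 genes were higher and 8 lower, and the median was -0.066 beside -0.0039 over all genes. Over all genes 16048 estimates were higher and 16579 lower. The median size of the difference was 0.084 for the 10 genes and 0.14 for all genes. For the 9 members above the valley it was 0.074, beside 0.099 for all 18259 genes above it. Of those 18259 genes 102 had an unadjusted p below 0.05 by limma, or 306 with the replicate block. The genotypes did not overlap at 3772 of them.

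A missing call does not show that levels were equal, and the intervals give what the arrays allow. For 9 of the 10 genes the 95% interval lay within a 2-fold change in either direction, and for BR6OX2 it did not. With the replicate block the interval lay within that range for all 10. Both counts include BR6OX1, which was near background on every array. Its interval bounds the intensity and need not bound a change in transcript. As a ratio of transgenic line to wild type the interval ran from 0.72 to 1.38 for DWF4, from 0.669 to 1.31 for CPD and from 0.662 to 1.31 for BRI1. It ran from 0.521 to 1.53 for BAS1, from 0.601 to 1.52 for BIN2 and from 0.427 to 2.14 for BR6OX2. These intervals rest on 2 arrays per genotype and are not adjusted for the number of genes. Their spread is drawn by limma toward that of all genes.

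**Figure D2:**
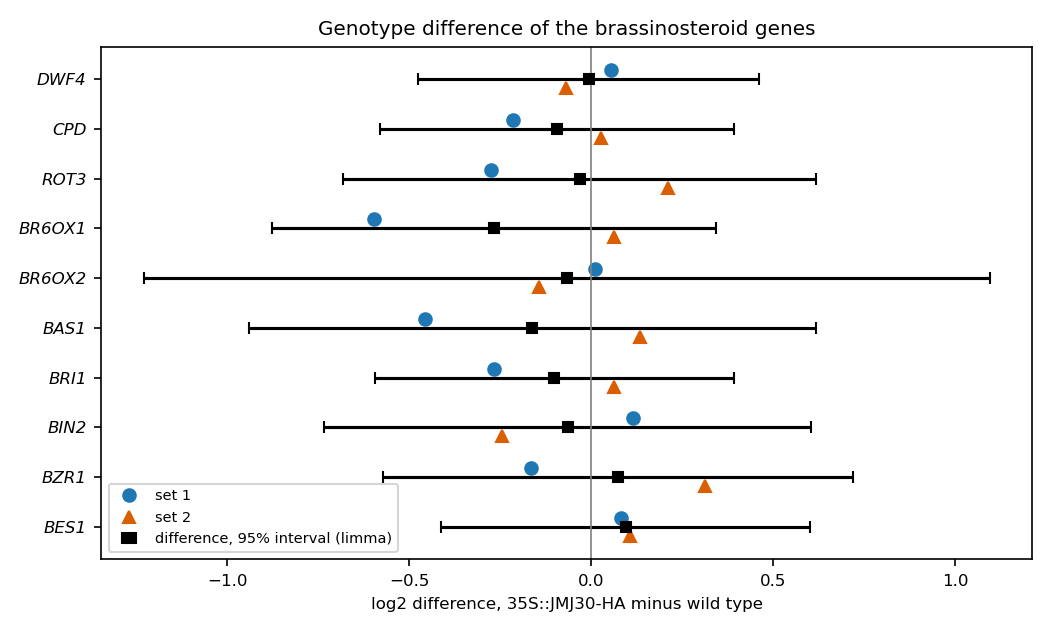
Log2 difference, 35S::JMJ30-HA minus wild type (x axis), of the 10 brassinosteroid genes; squares with bars are the limma estimate with its 95% interval on 4 arrays, circles the difference within set 1 and triangles within set 2. Every interval includes 0, and by the transcript models with the highest mean the sets lie on opposite sides of 0 for all genes except BES1.

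The set difference was larger in size than the genotype difference for 7 of the 10 genes and smaller for BR6OX1, BRI1 and CPD. The matching share of all genes was not computed. All genes above the valley also spread more between sets (SD of log2 differences 0.42) than between genotypes (SD 0.19). The median size of the log2 difference, set 2 minus set 1 with genotype in the model, was 0.26 for the 10 genes, beside 0.21 for all genes. BR6OX2 had the largest, with means of 92.7 ± 0.43 (SD, n = 2) in set 1 and 48.2 ± 3.39 (SD, n = 2) in set 2. It was 1.93-fold higher in set 1, a log2 difference of -0.95 ± 0.17 (SE) with a 95% interval from -1.39 to -0.50. The estimate was -0.87 within the wild type and -1.02 within the transgenic line. Of the genes above the valley 3.84% had a set difference of greater size.

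The limma test did not call BR6OX2 over all genes (adjusted p = 0.155). It was called in fits of the same arrays with trend and robust settings (adjusted p = 3.64e-06), with log2(value + 16) (adjusted p = 0.0129) and with genes above the valley alone (adjusted p = 0.0136). In the trend and robust fit the log2 difference of BR6OX2 was the same as in the main fit. Its SE was 0.176 there against 0.168 in the main fit, so the lower p did not come with a smaller SE. The unadjusted p by limma was 7.26e-08 there against 0.00308 in the main fit. The other 2 of these fits had smaller SEs, 0.0856 with log2(value + 16) and 0.133 with genes above the valley alone. Fits of the same arrays are no independent support for a set difference. Over the alternatives for BR6OX2 the adjusted p reached 0.399. Those 3 fits called 3553, 1847 and 1652 genes in all, against 4 in the main comparison, and the cause was not tested.

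Among the other 9 genes limma also called 0 between the sets, and BR6OX2 was the 1 of 10 at an unadjusted p below 0.05. The matching shares of all genes were 0.0123% called and 15.5% at an unadjusted p below 0.05. BIN2 read 391 ± 22.0 (SD, n = 2) in set 1 and 298 ± 35.6 (SD, n = 2) in set 2, a log2 difference of -0.40 ± 0.18 (SE, adjusted p = 0.393 by limma). It was called with trend and robust settings alone (adjusted p = 0.00903), in the fit of the same arrays that called 3553 genes. BAS1 read 71.7 ± 15.9 and 51.0 ± 3.35 (SD, n = 2 each), a log2 difference of -0.48 ± 0.21 (SE). It was -0.77 within the wild type and -0.18 within the transgenic line, a contrast that was not tested.

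The synthesis enzymes did not share a direction between the sets. DWF4 (0.065), BR6OX1 (0.14) and ROT3 (0.33) had positive estimates, and CPD (-0.085) and BR6OX2 (-0.95) negative ones. Whether BR6OX2 differed from the other enzymes in its set difference was not tested. On the signalling side the estimates were -0.019 for BRI1, -0.33 for BZR1 and -0.19 for BES1. Arrays of the sets did not overlap at 7 of the 10 genes, with set 2 lower at BR6OX2, BAS1, BIN2, BZR1 and BES1 and higher at DWF4 and ROT3. Such separation was frequent on these arrays, at 48.7% of all genes and 57.8% of genes above the valley. Set 2 was lower in this way at 23.2% and higher at 25.5% of all genes.

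**Figure D3:**
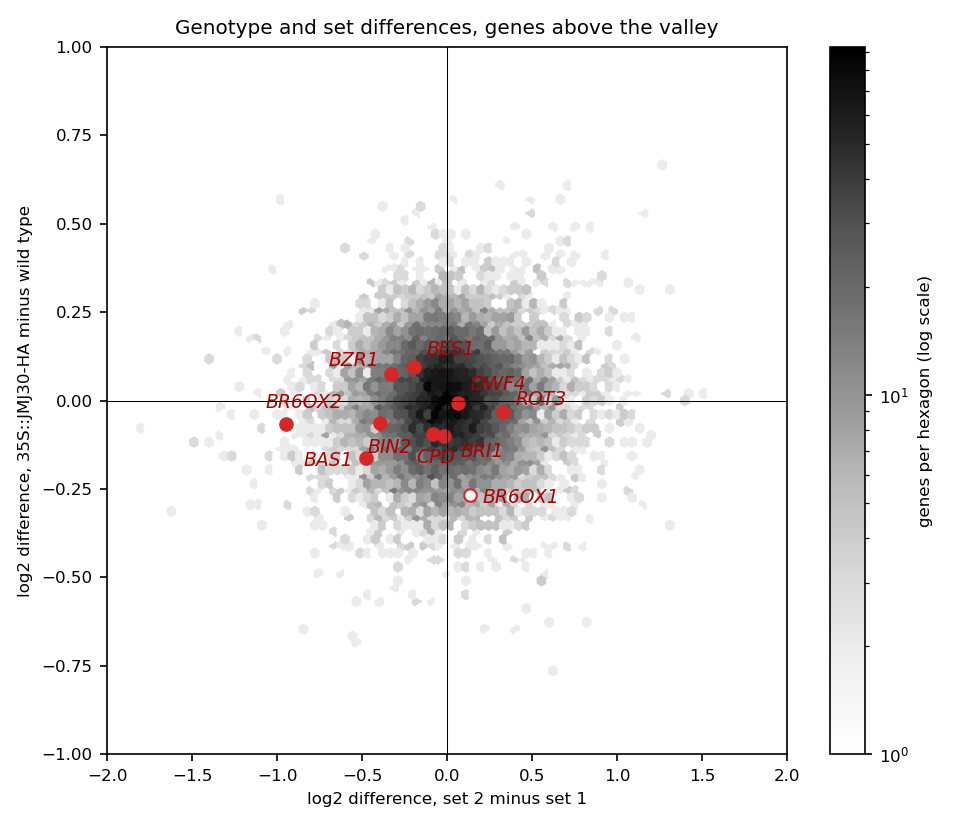
Log2 difference between genotypes (y axis) against log2 difference between sets (x axis) for genes above the valley, with grey shade for genes per hexagon on a log scale, and the 10 brassinosteroid genes as red circles (BR6OX1, near background, is open); axes end at 2 and 1, and 94 of 18259 genes lie outside. BR6OX2 lies at -0.95 on the set axis and -0.067 on the genotype axis, and the other 9 genes lie between -0.48 and 0.33 on the set axis.

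Several transcript models were measured for 4 of the genes. Of BES1 models 1, 3 and 6 had genotype differences of 0.026, 0.035 and 0.095 on the log2 scale, and set differences of -0.39, -0.083 and -0.19. From wild type to transgenic line, BES1 model 1 went from 789 to 833 in set 1 and from 626 to 615 in set 2. BES1 model 3 went from 660 to 767 and from 707 to 639. Both models of CPD were bright, and their genotype differences of 0.024 and -0.094 had opposite signs. CPD model 1 was higher in the transgenic line in both sets, 763 to 777 and 740 to 752. BZR1 model 2 was near background, at 3.86 and 5.09 in wild-type seedlings against 6.63 and 6.89 in transgenic ones, without overlap. With the mean of both models the genotype difference of BZR1 moved from 0.074 to 0.34 and its set difference from -0.33 to -0.051, both uncalled. BR6OX1 model 3 was near background too, with a genotype difference of -0.32. It read 7.31 and 5.70 in wild-type seedlings against 5.16 and 5.22 in transgenic ones, again without overlap.

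The rest of the pathway was described with 50 further genes in 6 groups, of which 41 lay above the valley. No gene of these groups was called between genotypes, and 1 had an unadjusted p below 0.05, beside 0% and 2.99% of all genes. Estimates were positive for 16 and negative for 34, beside 16048 positive and 16579 negative over all genes. Their median on the log2 scale was -0.087 beside -0.0039 for all genes. The counts per group changed when single arrays were left out, and whether these directions differ from all genes was not tested. The genotypes did not overlap at 7 of the 50, 2 higher and 5 lower, beside 12.7% and 13.3% of all genes.

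Of the brassinosteroid-induced genes 3 had higher and 6 lower estimates (median -0.15). IAA19, an auxin-response repressor of the Aux/IAA family, was the 1 gene of the 50 with an unadjusted p below 0.05. It read 41.0 and 39.7 in wild-type seedlings against 28.0 and 30.1 in transgenic ones, so both transgenic arrays lay below both wild-type arrays. Its log2 difference was -0.48, with a 95% interval from -0.94 to -0.012 before adjustment (limma adjusted p = 1.0). PRE5, a small helix-loop-helix protein gene of growth, was near background and read 7.36 and 6.92 against 8.40 and 10.5.

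Among the other synthesis genes 4 of 7 had higher estimates (median 0.074). CYP90D1, a relative of ROT3, read 49.3 and 32.1 in wild-type seedlings against 48.1 and 44.3 in transgenic ones, and its genotypes overlapped. FK, a sterol reductase gene, read 259 and 311 against 237 and 272. The inactivation genes had 1 higher and 5 lower estimates (median -0.21). CYP72C1, a relative of BAS1, read 33.3 and 25.6 in wild-type seedlings against 27.3 and 19.3 in transgenic ones. UGT73C5, a glucosyltransferase that inactivates the hormone and is listed as DOGT1 in the reference table, read 23.5 and 35.6 against 20.7 and 27.0. Both genes read lower in the transgenic line within each set, while the genotypes overlapped across the sets.

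Receptors and cytoplasmic signalling genes had 5 higher and 9 lower estimates (median -0.082). BRL1, a receptor of the BRI1 family in vascular cells, read 40.9 and 41.5 in wild-type seedlings against 35.1 and 35.8 in transgenic ones, without overlap. Its log2 difference was -0.22, with a 95% interval from -0.68 to 0.24. BSU1, a phosphatase that acts on BIN2, was near background, at 4.28 and 8.57 against 3.61 and 4.37. Among relatives and partners of BIN2, BZR1 and BES1 2 estimates were higher and 5 lower (median -0.064). BEH1, of the BZR1 family, read 108 and 137 against 90.2 and 92.6, again without overlap, a log2 difference of -0.41. BIM1, a partner of BES1 on DNA, read 346 and 497 against 406 and 543. Of the other regulators 1 was higher and 6 lower (median -0.14). IBH1, an inhibitor of growth-promoting factors, read 61.4 and 69.3 in wild-type seedlings against 33.1 and 62.9 in transgenic ones. CES, a factor that promotes hormone synthesis, was near background, at 5.36 and 3.51 against 3.72 and 3.30.

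Between the sets 0 of the 50 genes were called by limma. At an unadjusted p below 0.05 there were 15 of the 50, beside 15.5% of all genes and 2946 of the 18259 genes above the valley. Arrays of the sets did not overlap at 32 of the 50, beside 48.7% of all genes and 57.8% of genes above the valley. Whether these shares differ was not tested, and the lists were chosen with earlier results of these data known. Estimates were higher in set 2 for 27 and lower for 23, with a median of 0.016 beside 0.0091 for all genes. MYBL2, a repressor of the MYB family that works with BES1, read 131 and 133 in set 1 and 293 and 247 in set 2, in the order wild type and transgenic line. AIF1, a helix-loop-helix inhibitor of growth, read 46.1 and 34.7 in set 1 and 77.3 and 74.0 in set 2. TCH4, a cell wall enzyme gene, read 157 and 190 in set 1 and 367 and 306 in set 2. All 3 genes were thus high in set 2 in both genotypes, with log2 differences of 1.02, 0.92 and 0.95.

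Other genes went the opposite way. SERK4, a co-receptor of BRI1, read 198 and 166 in set 1 and 84.1 and 104 in set 2, a log2 difference of -0.96. BEE3, a helix-loop-helix factor induced by the hormone, read 48.3 and 38.1 in set 1 and 20.6 and 24.0 in set 2, a log2 difference of -0.95. Both estimates were close to that of BR6OX2, and no test compared them. BIM3, a relative of BIM1, had a difference of -0.71. BIM1 (0.47), BRL3 (0.55), BEN1 (0.62), which lowers hormone levels, and UGT73C5 (0.49) were higher in set 2, and CYP90D1 (-0.37) and STE1 (-0.27), a sterol desaturase gene, were lower. Adjusted p by limma ran from 0.152 for MYBL2 to 0.499 for STE1 among these genes. The brassinosteroid-induced genes as a list were split, 4 higher and 5 lower in set 2.

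**Figure D4:**
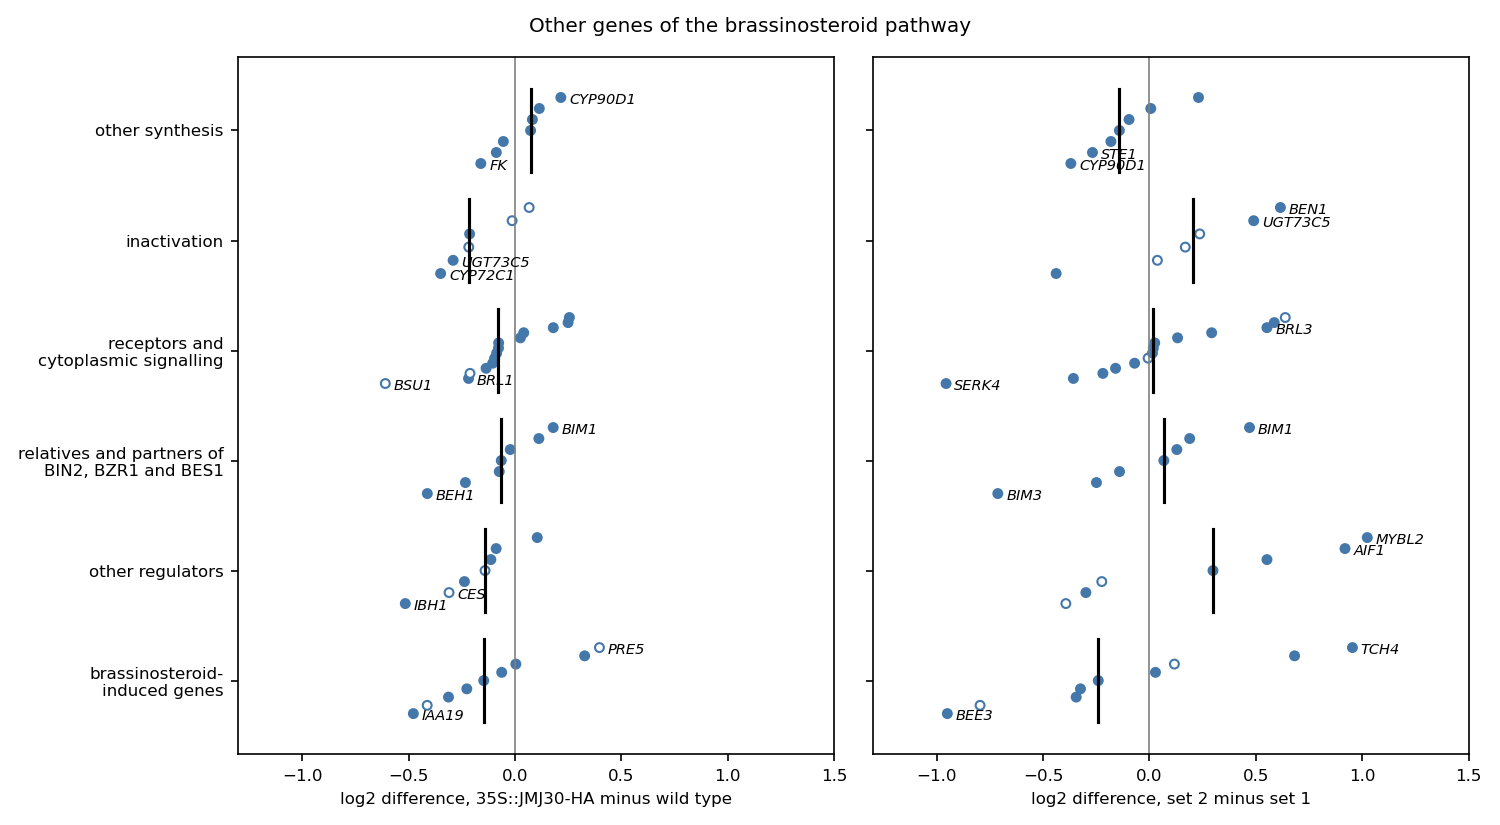
Log2 difference between genotypes (left, 35S::JMJ30-HA minus wild type) and between sets (right, set 2 minus set 1) for 50 further pathway genes in 6 groups; each circle is a gene, open where near background, and black lines are group medians. The groups spread more widely between sets, from -0.96 for SERK4 to 1.02 for MYBL2, than between genotypes, from -0.61 for BSU1 to 0.40 for PRE5. BSU1 and PRE5 were near background. All genes above the valley also spread more between sets (SD of log2 differences 0.42) than between genotypes (SD 0.19).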

How the data were processed

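The deposited intensity values are linear, 1 per transcript model. The submitters' processing notes name RMA, with no version or settings, and the files name no genome build, so coordinates were left out. No value was at or below 0, and log2 was taken without a pseudocount. For genes with several models (3602) the one with the highest mean log2 stood for the gene. Symbols came from the RefSeq gene table of TAIR10.1, in which 98.1% of locus codes were found. The test between genotypes was that of limma 3.58.1 under R 4.3.3 (two-sided, Benjamini-Hochberg over all genes, call at an adjusted p below 0.05), and sets with the replicate number and genotype as terms. The script was tested on simulated data. Plots used matplotlib 3.10.9.

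Replicate numbers 1 and 2 occur in both genotypes. Deviations from genotype means correlated at 0.42 between same-numbered arrays across all genes and 0.67 for genes above the valley (genes are no independent replicates). The pairing itself rests on the design text, which does not say what a set shared. P-values, SEs and intervals use a spread that limma draws toward that of all genes. They do not measure the spread of a gene's own arrays alone. The SDs given with means are those of the arrays alone.

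Members and lists were chosen with earlier results of these data known. All 10 members are named. Of each other list the genes called are named, or else the 2 with the largest absolute moderated t per comparison. Of 53 listed genes 50 were used, since DRL1, BIL1 and BIL2 are not the names of their locus codes in the reference table. The number of arrays limits the precision.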

Additional observations from a re-analysis of the deposited data

Results flagged for a closer look

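For 9 of the 10 brassinosteroid genes the genotype difference had opposite signs in set 1 and set 2, each set being a single pair of arrays, so the disagreement was not tested. This count uses the transcript models with the highest mean. Models 1 and 3 of BES1 also had opposite signs, while CPD model 1 was positive in both sets. Across all genes 49.8% had opposite signs, and 21 of the 50 further pathway genes did. The log2 difference was negative in set 1 and positive in set 2 for CPD (-0.22 and 0.028), ROT3 (-0.28 and 0.21), BR6OX1 (-0.60 and 0.063), BAS1 (-0.46 and 0.13), BRI1 (-0.27 and 0.063) and BZR1 (-0.16 and 0.31). It was positive in set 1 and negative in set 2 for DWF4 (0.055 and -0.069), BR6OX2 (0.0095 and -0.14) and BIN2 (0.12 and -0.24).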

How the results depend on the processing

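No member was called between genotypes under any alternative, and the replicate block changed no call: with it the difference of BR6OX2 was -0.067 ± 0.17 (SE) against ± 0.46 without. How many of all genes turn sign when single arrays are left out was not computed. Without each array in turn the genotype difference turned sign for 8 of 10 members, in fits where the set difference enters the genotype difference. It ran from -0.070 to 0.057 for DWF4, -0.20 to 0.0099 for CPD, -0.32 to 0.26 for ROT3, -0.58 to 0.44 for BR6OX2, -0.55 to 0.22 for BAS1, -0.35 to 0.22 for BIN2, -0.21 to 0.36 for BZR1 and -0.0091 to 0.20 for BES1. BR6OX1 (-0.50 to -0.034, and -0.092 with log2(value + 16)) and BRI1 (-0.19 to -0.0090) kept their sign. Called genes between genotypes were 0, but 1 with trend and robust settings and 974 at an unadjusted p below 0.05. Between sets limma called 4 genes, against 0 with the mean of models or with quantile normalization again, 87 without genotype in the model, 1652 above the valley, 1847 with log2(value + 16), 3553 with trend and robust settings, 5044 at an unadjusted p below 0.05, and 0 to 0 without single arrays. The set difference of BR6OX2 was called at -0.95 with trend and robust settings, above the valley and at an unadjusted p below 0.05, and at -0.76 with log2(value + 16). That of BIN2 was called at -0.40 with trend and robust settings. With the mean of models the set difference of BR6OX1 turned to -0.018 and that of BZR1 moved to -0.051. Without single arrays it ran from -0.16 to 0.43 for BR6OX1, -0.19 to 0.022 for CPD, -0.15 to 0.11 for BRI1, -0.70 to -0.25 for BAS1, -0.49 to -0.17 for BZR1, 0.19 to 0.47 for ROT3, -0.52 to -0.27 for BIN2, 0.031 to 0.0997 for DWF4, -0.25 to -0.14 for BES1 and -1.02 to -0.87 for BR6OX2. Genes with higher estimates numbered 0 of the inactivation list above the valley. Without single arrays they were 0 to 3 of that list, 1 to 5 of other synthesis, 4 to 7 of receptors and cytoplasmic signalling, 2 to 4 of relatives and partners, 1 to 4 of other regulators and 3 to 4 of brassinosteroid-induced genes. The causes were not tested.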
